A study of Mus musculus with 6 samples.

Results

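Dusp, Sprouty and Spred genes encode feedback inhibitors of receptor tyrosine kinase signaling, and 10 of them (Dusp1, Dusp2, Dusp4, Dusp5, Dusp6, Spry1, Spry2, Spry4, Spred1 and Spred2) were followed here in quiescent muscle stem cells (qMuSCs). The members were named from the mitogen-activated protein kinase phosphatases that act on ERK and the Sprouty and Spred proteins. They were chosen with earlier results of these data known, and relatives such as Dusp7 and Spred3 were read apart from them. All 10 members were among the 31053 genes listed. RNA-seq had been run on 6 mice aged 3 to 4 months, 3 WT (c124, c129 and c130) and 3 cD2KO (fl125, fl126 and fl128). All mice carried the Pax7nGFP reporter on 1 allele and Dio2Fl/Fl, all received tamoxifen, and qMuSCs were sorted by GFP from resting hindlimb muscle after enzymatic digestion. WT mice were Pax7+/+, and cD2KO mice were Pax7-CreERT2/+, so that Cre, driven by Pax7, could delete Dio2, the gene of the enzyme that converts T4 to the active thyroid hormone T3. The Cre allele and the deletion of Dio2 therefore cannot be told apart in this comparison.

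Receptor tyrosine kinases such as the FGF receptors activate Ras, which passes the signal through Raf and Mek to Erk, and Erk induces transcription of its own inhibitors. Dusp proteins remove phosphate from Erk and related kinases, whereas Sprouty and Spred proteins act upstream, at the level of the receptor, Ras and Raf. In muscle, Spry1 is known for restraining FGF signaling in quiescent satellite cells and for the return of cycling cells to quiescence.

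Of the 10 members, 8 passed the expression minimum (a mean normalized count above 10) and were tested, and the question was whether their transcripts differed in the cD2KO qMuSCs. Dusp1 and Dusp6 were lower in cD2KO qMuSCs at an unadjusted p under 0.05, and none of the 8 was higher. Dusp1 fell from 257 ± 98.5 to 150 ± 18.6 CPM (counts scaled to the TMM-normalized library size, mean ± SD, n = 3 mice) and Dusp6 from 40.7 ± 16.2 to 18.2 ± 4.27 CPM. No member passed an adjusted p of 0.05 in edgeR, DESeq2 or limma voom. In these, 2, 2 and 3 members, respectively, had an unadjusted p under 0.05. Of all 11633 genes tested, 12.0% had an unadjusted p under 0.05 in edgeR, 5.34% higher and 6.62% lower, and 1 gene passed an adjusted p of 0.05. When edgeR was instead run on all 18040 genes with a count, Dusp1 (adjusted p = 0.0381) and Dusp6 (adjusted p = 0.0205) passed. In that fit 939 genes were higher and 1040 lower at an unadjusted p under 0.05, against 621 and 770 in the fit of 11633 genes. The number of all genes that passed an adjusted p of 0.05 there was not counted, so the 2 members cannot be set against it. The estimates themselves hardly moved. Dusp1 was at -0.74 (SE 0.23) on the log2 scale there, against -0.78 (SE 0.26) in the fit of 11633 genes. Dusp6 was at -1.11 (SE 0.32) against -1.15 (SE 0.33). All 8 log2 fold changes of the members tested were below 0, with a median of -0.61, whereas 51.9% of all genes tested were below 0, with a median of -0.02 and quartiles of -0.32 and 0.25.

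The libraries held 2184073 to 3897787 counts, and 3 counts corresponded to 0.773 to 1.37 CPM. The targeted gene was barely detected: Dio2 had 21, 5 and 10 counts in the WT mice and 15, 5 and 1 in the cD2KO mice, so its counts neither separate nor check the genotypes. Pax7, the gene of the sort, measured 411, 213 and 434 CPM in WT against 691, 455 and 316 CPM in cD2KO, a log2 difference of 0.47 (95% interval -0.23 to 1.17, adjusted p = 0.623). The libraries also held transcripts of other cells. The summed level of 16 immune markers was 4598 to 8749 CPM in WT and 265 to 3172 CPM in cD2KO, and Cd79a was at 0 in every mouse. All 14 immune markers tested were below 0 (median log2 fold change -1.86) and 12 had groups that did not overlap, while 3 passed the test as lower. This count rested on single mice: it was 13 without fl125, 0 without fl128, 2 without c124 and 1 without c129, c130 or fl126, and 11 without c129 and fl125. The sum of 11 mural cell markers was 5604 to 9525 CPM against 11358 to 16594 CPM, with 5 of 11 higher and 3 below 0. Acta2 and Myh11, both higher, added the most CPM to this sum on average in each group. Rgs5 (0.00), Pdgfrb (-0.06), Abcc9 (-0.23) and Kcnj8 (-0.36, all log2 fold changes) did not rise. Without c129 and fl125, 5 mural markers were higher and 2 lower. Of 11 endothelial markers tested 6 were lower (sums of 306 to 433 and 252 to 316 CPM), of 14 muscle stem cell markers 4 were higher and 1 lower (1735 to 2344 and 2512 to 2610 CPM), of 8 fibroadipogenic markers 1 was higher and 2 lower (3916 to 6363 and 2395 to 5279 CPM), and of 7 Schwann cell markers 2 were lower (4620 to 7053 and 6238 to 7246 CPM). Of 8 fibroadipogenic markers, 0 were lower without c129 and 4 without fl128. All 10 myofiber markers were above 0 (median 0.52; sums of 2007 to 4556 and 3454 to 6718 CPM), of which 1 was higher with all mice, 7 without c129, 6 without fl125, 9 without both and 0 without any other mouse. None of 6 erythroid markers passed in either direction (10696 to 16675 and 3438 to 22435 CPM), and 3 were higher without c129 and fl125. In such bulk libraries fewer cells of a type and less RNA per cell cannot be told apart, and the part of these cells in the values of the feedback inhibitors was not tested.

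Among the nuclear phosphatases, Dusp1 (ENSMUSG00000024190, mm10 chr17:26505590-26562128, minus strand), an immediate early gene whose product acts on p38 and Jnk as well as Erk, and Dusp5, whose product binds Erk in the nucleus, have promoters with named sites. The stretches from 250 to 51 bases before the RefSeq start (GRCm38.p6, coding strand) are shown for both, and for Dusp6 and Spry1, which the values below turn on; capitals mark matches to the motifs searched.
Dusp1, chr17:26508523-26508722, minus strand: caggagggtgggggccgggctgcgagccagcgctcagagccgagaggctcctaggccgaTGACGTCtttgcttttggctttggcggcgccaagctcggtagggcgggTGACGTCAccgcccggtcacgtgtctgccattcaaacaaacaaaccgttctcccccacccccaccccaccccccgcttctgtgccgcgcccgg
Dusp5, chr19:53528895-53529094, plus strand: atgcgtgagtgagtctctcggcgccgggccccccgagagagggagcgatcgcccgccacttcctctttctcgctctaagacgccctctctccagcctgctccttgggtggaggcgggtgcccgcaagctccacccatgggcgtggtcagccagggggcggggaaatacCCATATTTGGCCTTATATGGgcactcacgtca
Dusp6, chr10:99262981-99263180, plus strand: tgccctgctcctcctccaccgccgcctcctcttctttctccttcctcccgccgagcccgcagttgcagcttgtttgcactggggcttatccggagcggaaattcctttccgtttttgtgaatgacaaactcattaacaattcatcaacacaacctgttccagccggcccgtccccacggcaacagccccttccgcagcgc
Spry1, chr3:37639697-37639896, plus strand: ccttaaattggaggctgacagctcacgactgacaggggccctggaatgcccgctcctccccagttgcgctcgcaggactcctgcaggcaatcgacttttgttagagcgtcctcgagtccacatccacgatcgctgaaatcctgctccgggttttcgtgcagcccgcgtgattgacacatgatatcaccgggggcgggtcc

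In the 250 bases before the start, both strands were searched for 7 motifs in 8 of the 10 members. Dusp4 and Spry4 were not searched. Dusp1 held the cAMP response element TGACGTCA at -143 to -136 and the shorter TGACGTC at -191 to -185. The full element was found in 1.55% of 32851 windows, and the shorter form, which the full element contains, in 2.78%. Dusp5 held adjoining CArG boxes, the site of serum response factor, at -82 to -73 and -72 to -63, a motif present in 1.47% of windows. Spred2 held the shorter cAMP element at -53 to -47 from its RefSeq start. This match lies downstream of the GENCODE start of Spred2 (chr11:19924375), in a window that overlaps an annotated exon of the gene. No match in any member's window was found for TGANTCA (AP-1, 6.75% of windows), CCGGAAG (ETS, 6.91%), GCGTGGGCG (EGR, 0.536%) or AGGTCA (the core of nuclear receptor sites, among them those of thyroid hormone receptors, 14% of windows). These matches describe letters only.

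In WT, Dusp1 measured 160 CPM in c124, 357 in c129 and 254 in c130, and in cD2KO it measured 148 CPM in fl125, 169 in fl126 and 132 in fl128; values below keep this order of mice. WT mice c129 and c130 lay above all cD2KO mice, and c124 lay below fl126, so the groups overlapped. The log2 fold change was -0.78 (unadjusted p under 0.05, SE 0.26, 95% interval -1.34 to -0.22, adjusted p = 0.227). Without c129 it was -0.45 (SE 0.24, adjusted p = 0.693), and the call was lost; in the other 5 fits that left out a mouse it held. The annotated span of Dusp1 overlaps exons of Ergic1, a gene on the opposite strand, which averaged 78.3 ± 7.57 CPM in WT against 100 ± 11.1 CPM in cD2KO; whether the counting used strand is not given in the sources used here. Genes on the opposite strand that have no row in the counts also overlap exons of Dusp5 (AC137853.2) and Spry1 (Gm42922).

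Dusp2, whose product is a nuclear phosphatase of Erk best known from activated immune cells, measured 3.09, 14.1 and 2.44 CPM in WT against 1.82, 1.38 and 3.79 CPM in cD2KO. Only c129 stood apart, and the groups overlapped. These levels rested on 12, 38 and 7 counts in WT and 4, 4 and 12 in cD2KO, and the log2 fold change of -1.43 did not pass the test (SE 0.79, 95% interval -3.13 to 0.27, adjusted p = 0.511). Without c130 it was -1.82 and passed an unadjusted p of 0.05 (adjusted p = 0.52), and without c129 Dusp2 fell under the expression minimum.

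Dusp4 and Dusp5, the other nuclear members, were under the minimum and were not tested. Dusp4 had 2, 10 and 5 counts in WT and 0, 14 and 0 in cD2KO, so a level of up to 1.37 CPM in fl125 and 0.947 CPM in fl128 was allowed by the counts of 0. Dusp5 had 12, 24 and 8 counts in WT and 1, 3 and 6 in cD2KO, or 3.09, 8.91 and 2.78 CPM against 0.455, 1.03 and 1.89 CPM. Every cD2KO mouse lay below every WT mouse for Dusp5. When all genes with a count were fitted, the log2 fold change of Dusp5 was -1.99 (SE 1, adjusted p = 0.448) with an unadjusted p under 0.05, and that of Dusp4 was -0.22 (SE 1.29, adjusted p = 0.97).

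Dusp6 (ENSMUSG00000019960, mm10 chr10:99263231-99267489, plus strand) encodes the cytoplasmic phosphatase that is selective for Erk. It measured 30.6, 59.4 and 32 CPM in WT against 16.9, 23 and 14.8 CPM in cD2KO. Every cD2KO mouse lay below every WT mouse. The log2 fold change was -1.15 (unadjusted p under 0.05, SE 0.33, 95% interval -1.85 to -0.45, adjusted p = 0.152). It passed an unadjusted p of 0.05 in each of the 6 fits that left out a mouse, with log2 fold changes of -1.36 to -0.76, and the value nearest to 0 came without c129 (adjusted p = 0.628). Without c129 and fl125 together, the mice with the highest and lowest immune marker sums, it was -0.70 (SE 0.33, adjusted p = 0.344) and no longer passed an unadjusted p of 0.05.

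**Figure D1:**
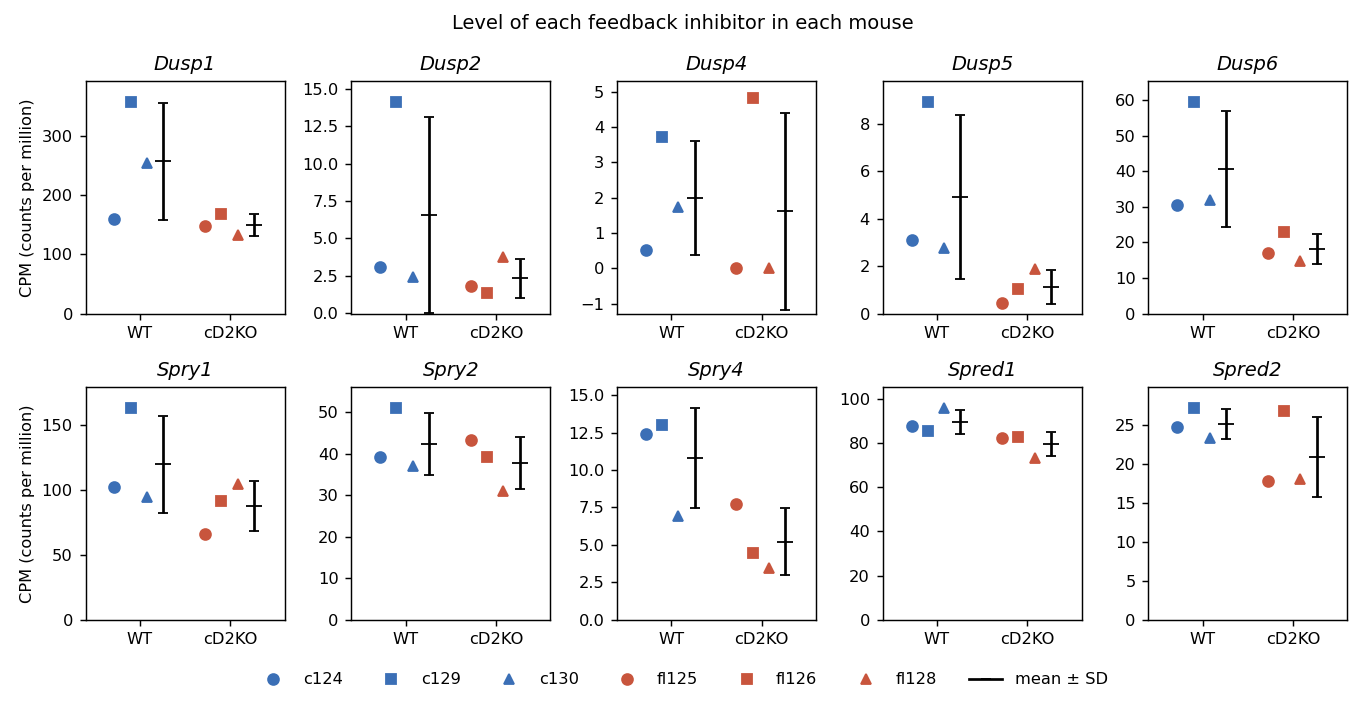
Level of each member in each mouse in CPM, on an axis of its own for each gene; points are mice and the bar is the mean ± SD of the 3 mice of a group, which for Dusp4 in cD2KO extends below 0. For Dusp5, Dusp6 and Spred1 every cD2KO mouse lies below every WT mouse, and c129 is the highest mouse in 8 of the 10 panels.

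The Sprouty proteins bind adaptors and Raf and block the passage of the signal from receptors to Erk. Spry1 (ENSMUSG00000037211, mm10 chr3:37639947-37644598, plus strand) measured 102, 163 and 94.3 CPM in WT against 66.5, 91.5 and 105 CPM in cD2KO. Mouse c129 was high and fl125 low, and the other 4 mice lay between 91.5 and 105 CPM. The log2 fold change was -0.45 (SE 0.25, 95% interval -0.98 to 0.08, adjusted p = 0.511). The value was -0.60 without fl128, where it passed an unadjusted p of 0.05 (adjusted p = 0.533), -0.14 without c129, and 0.03 (SE 0.2, adjusted p = 0.968) without c129 and fl125.

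Spry2, which binds the adaptor Grb2 and the ubiquitin ligase Cbl, measured 39.1, 50.9 and 36.9 CPM in WT against 43.3, 39.2 and 30.9 CPM in cD2KO. The groups overlapped, with a log2 fold change of -0.16 (95% interval -0.70 to 0.37, adjusted p = 0.865) that was 0.01 without c129. Spry4 (mm10 chr18:38586247-38601415, minus strand), whose product blocks the activation of Raf, measured 12.4, 13 and 6.96 CPM in WT against 7.74, 4.47 and 3.47 CPM in cD2KO. Only c130 and fl125 overlapped. Its log2 fold change of -1.06 (SE 0.51, 95% interval -2.15 to 0.03, adjusted p = 0.436) did not pass the test with all mice in edgeR. It passed an unadjusted p of 0.05 in limma voom (-1.14, adjusted p = 0.415), with total count scaling (-1.12, adjusted p = 0.411), without c130 (-1.29, adjusted p = 0.488) and without fl125 (-1.40, adjusted p = 0.222).

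The Spred proteins share a domain with the Sproutys, and they bring neurofibromin, which switches Ras off, to the membrane. Spred1 measured 87.8, 85.4 and 95.7 CPM in WT against 82.4, 82.9 and 73.3 CPM in cD2KO. The groups did not overlap, but the difference was small, with a log2 fold change of -0.17 (95% interval -0.58 to 0.23, adjusted p = 0.783). Spred2 measured 24.7, 27.1 and 23.3 CPM in WT against 17.8, 26.8 and 18 CPM in cD2KO, where fl126 lay within the WT range. Its log2 fold change was -0.26 (95% interval -0.89 to 0.37, adjusted p = 0.794). Of the 8 members tested, 2 (Dusp6 and Spred1) had groups that did not overlap, which held for 18.1% of all genes tested.

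**Figure D2:**
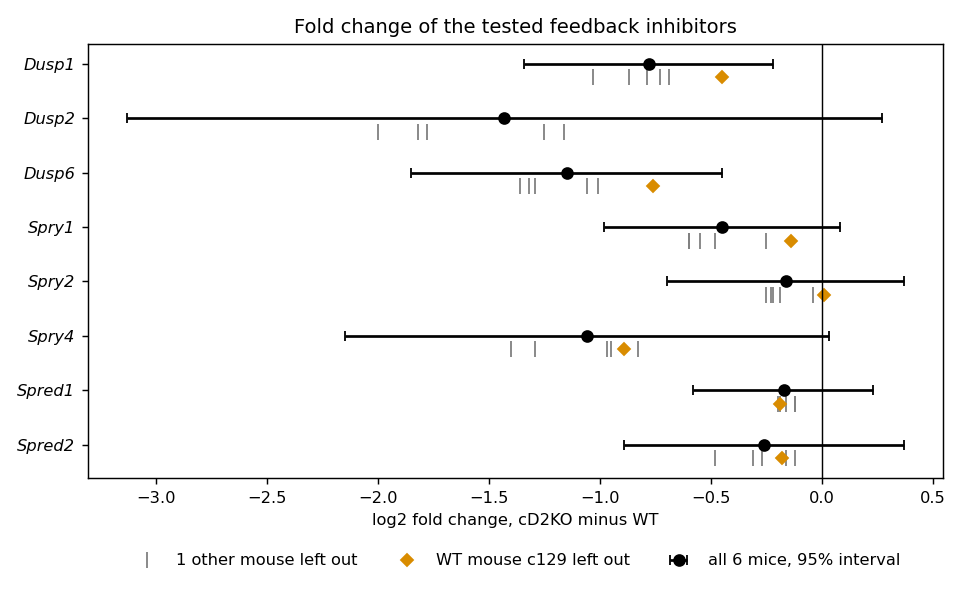
Log2 fold change (cD2KO minus WT) of the 8 members tested; black points and bars are the estimate from all 6 mice with its 95% interval, grey ticks the fits with 1 other mouse left out, and orange diamonds the fit without c129. The intervals of Dusp1 and Dusp6 lie below 0; Dusp2 has no diamond because it was under the expression minimum without c129.

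Mouse c129 set much of the spread within WT. It had the highest level of the 6 mice in 8 of the 10 members (80% of them) and in 22.8% of the 11633 genes tested. It also had the highest sum of the immune markers (8749 CPM) and of 23 immediate early genes (9793 CPM, against 4603 and 6054 CPM in the other WT mice and 4240 to 5201 CPM in cD2KO). The heat shock and metallothionein genes that enzymatic digestion can induce, of which 1 of 9 was higher and 1 lower, had their highest sum in c129 as well (9586 CPM, against 4909 to 6935 CPM in the other 5 mice). Of this list, Hspa1a (3150 CPM), Hspa1b (2399 CPM), Dnajb1 and Hsph1 were highest in c129. Hspb1 (340 CPM) and Mt2 (487 CPM) were lowest there, and Mt1, Hspa8 and Hsp90aa1 were highest in another mouse. The part of the digestion and of immune cells in the level of the members was not tested. Without c129, 1 of 7 members tested was lower (Dusp6) and their median log2 fold change was -0.19. Of all genes tested in that fit 3.46% were lower, with a median of 0.01, against 6.62% with all mice. Without c129 and fl125, 0 of 7 members passed in edgeR at an unadjusted p of 0.05, 6 of 7 were below 0 and the median was -0.20. There 6.41% of all genes tested were lower, with a median of -0.01.

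**Figure D3:**
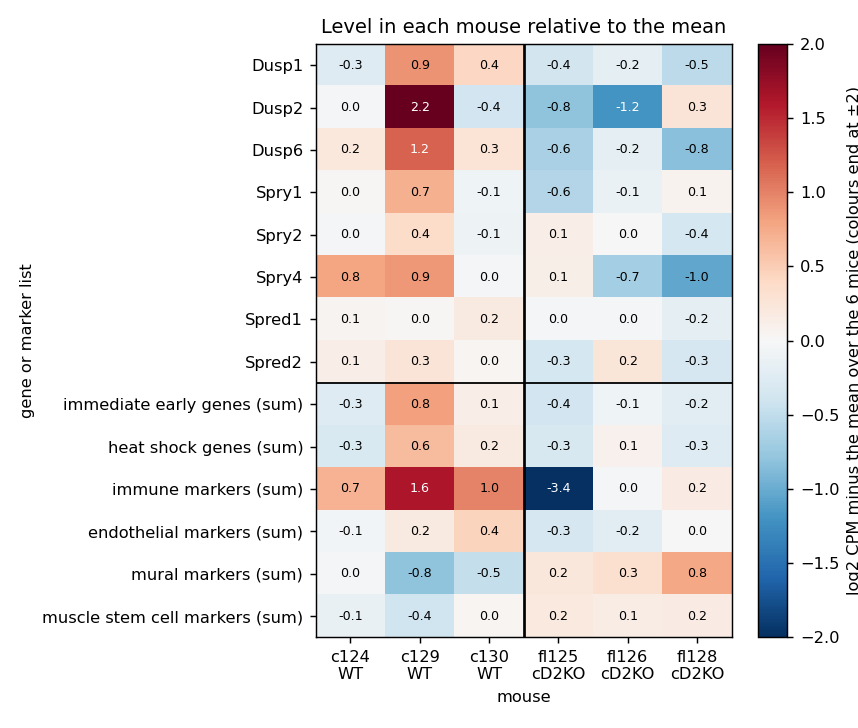
Log2 CPM of each tested member, and of summed lists of genes, in each mouse minus its mean over the 6 mice (colours end at ±2; the vertical line divides WT from cD2KO). The column of c129 is above the mean for Dusp1 (0.91), Dusp2 (2.15), Dusp6 (1.17), Spry1 (0.70), immediate early genes (0.82) and immune markers (1.62), and the immune markers of fl125 are at -3.42.

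Other phosphatases and relatives of the members lay on both sides of 0, with 4 of 9 tested above and 5 below. Of these 9, 1 was higher and none lower, with a median log2 fold change of -0.15. Dusp14, an atypical phosphatase that dampens MAP kinase signaling, rose from 16.1 ± 3.74 to 34.1 ± 3.73 CPM (log2 fold change 1.09, SE 0.29, adjusted p = 0.135), with every cD2KO mouse above every WT mouse. Dusp7, the cytoplasmic relative of Dusp6, was at 12.5 ± 7.27 and 6.17 ± 2.24 CPM (-0.98, 95% interval -2.1 to 0.14, adjusted p = 0.494). Dusp16, a Jnk phosphatase, was at -0.19 (adjusted p = 0.847), Spred3 at -0.74 (adjusted p = 0.706) and Il17rd (Sef), an inhibitor of FGF receptor signaling, at 0.00 (95% interval -0.76 to 0.76) on the log2 scale. Dusp10 was under the minimum, and Spry3 had no matching entry.

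The genes that carry the signal were next compared. Of 16 receptors and adaptors tested, 1 was higher and 1 lower, with a median log2 fold change of 0. Fgfr1, an FGF receptor acting in satellite cells, averaged 236 ± 57.7 CPM in WT against 188 ± 8.94 CPM in cD2KO (-0.33, 95% interval -0.79 to 0.13, adjusted p = 0.585). Fgfr4 lay on the other side of 0, at 86.4 ± 5.35 against 113 ± 10.6 CPM (0.39, 95% interval -0.01 to 0.8, adjusted p = 0.437). Every cD2KO mouse lay above every WT mouse for Fgfr4, which did not pass the test. Fgfr2 and Fgfr3 were under the minimum. The adaptor Crkl rose from 32.5 ± 4.98 to 47.7 ± 2.2 CPM (0.56, adjusted p = 0.379). Kdr, the VEGF receptor of endothelial cells and also 1 of the endothelial markers above, fell from 19.5 ± 8.66 to 6.06 ± 1.62 CPM (-1.66, adjusted p = 0.132). None of the list was higher without c124, c130 or fl126, and 2 were higher without c129 or fl128.

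Of 16 genes of the Ras, Raf, Mek and Erk core, 2 were higher and none lower, with a median of 0.12. The small GTPase Rras rose from 197 ± 33.2 to 321 ± 88.3 CPM (0.71, adjusted p = 0.219), and Mapk3, which encodes Erk1, from 94.9 ± 33.4 to 142 ± 10.7 CPM (0.57, adjusted p = 0.367). The kinases Braf (0.15, adjusted p = 0.847), Map2k1 (-0.30, adjusted p = 0.76) and Map2k2 (0.20, adjusted p = 0.798) did not pass the test. The number higher was 1 without c129, c130, fl126 or fl128, and 1 gene was lower without c129. The groups of Mapk3 overlapped, with c124 at 133 CPM and fl128 at 130 CPM.

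Of 17 other negative regulators of the pathway, 1 was higher and 3 lower, with a median of -0.04. The lower genes were Rasa3, which accelerates GTP hydrolysis by Ras family proteins (79.6 ± 4.78 to 43.3 ± 12.9 CPM, -0.87, adjusted p = 0.139), Sulf2, which trims the heparan sulfate that FGF binds (-1.17, adjusted p = 0.197), and the cytokine inhibitor Socs3 (-0.70, adjusted p = 0.371). Rasal2, another GTPase-activating protein, rose by 0.51 on the log2 scale (adjusted p = 0.331). With 1 mouse left out, 2 to 4 of the 17 were lower, and 1 was lower without c129 and fl125. Of 16 genes of the p38 and Jnk arm, which Dusp1 also acts on, 1 was lower and none higher, with a median of -0.09, and the lower gene was Mapk14, which encodes p38 alpha (38 ± 16.9 to 18.8 ± 2.5 CPM, -1.01, adjusted p = 0.228). Without c129 none of the 16 was lower and the median was 0.06, and 2 were lower without c124 or c130.

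Immediate early genes, and a later list of Ets factors and genes placed downstream of Erk, were read next. Of 23 immediate early genes, 10 were lower and none higher, with a median log2 fold change of -0.75. The transcription factors Klf4 (180 ± 73.9 to 67.8 ± 3.57 CPM, -1.41, adjusted p = 0.0885) and Klf2 (120 ± 44.6 to 43.5 ± 9.33 CPM, -1.45, adjusted p = 0.0885) had the smallest p-values, followed by the antiproliferative gene Btg2 (-1.30, adjusted p = 0.132) and Klf6 (-0.75, adjusted p = 0.202). Fos measured 300, 1049 and 510 CPM in WT against 215, 348 and 321 CPM in cD2KO (-1.07, adjusted p = 0.388), and Egr1 measured 696, 2016 and 1065 CPM against 587, 891 and 607 CPM (-0.86, adjusted p = 0.379). For both, as for Dusp1, c129 was the highest mouse and the groups overlapped at c124. Without c129, 3 of 22 immediate early genes were lower and the median was -0.37, and 6 of 22 were lower without fl128 and 15 of 22 without c124; without c129 and fl125, 6 of 23 were lower and 1 higher, with a median of -0.36.

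Of 16 Ets factors and later Erk targets tested, 1 was higher and 3 lower, with a median of -0.30. Emp1, an epithelial membrane protein, fell from 57.3 ± 14 to 24.8 ± 3.03 CPM (-1.21, adjusted p = 0.0974), Phlda1 by 0.50 (adjusted p = 0.405) and the kinase Rps6ka1 by 0.94 (adjusted p = 0.409) on the log2 scale. Ets2 rose from 122 ± 6.56 to 175 ± 37 CPM (0.52, adjusted p = 0.332). The FGF-responsive Ets factors Etv4 (0.21, adjusted p = 0.934) and Etv5 (-0.39, adjusted p = 0.79) did not pass the test. The number lower was 1 without c129 (median -0.23) and 1 without fl128 (median -0.17), and Ets2 was not called without c124, fl126 or fl128.

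**Figure D4:**
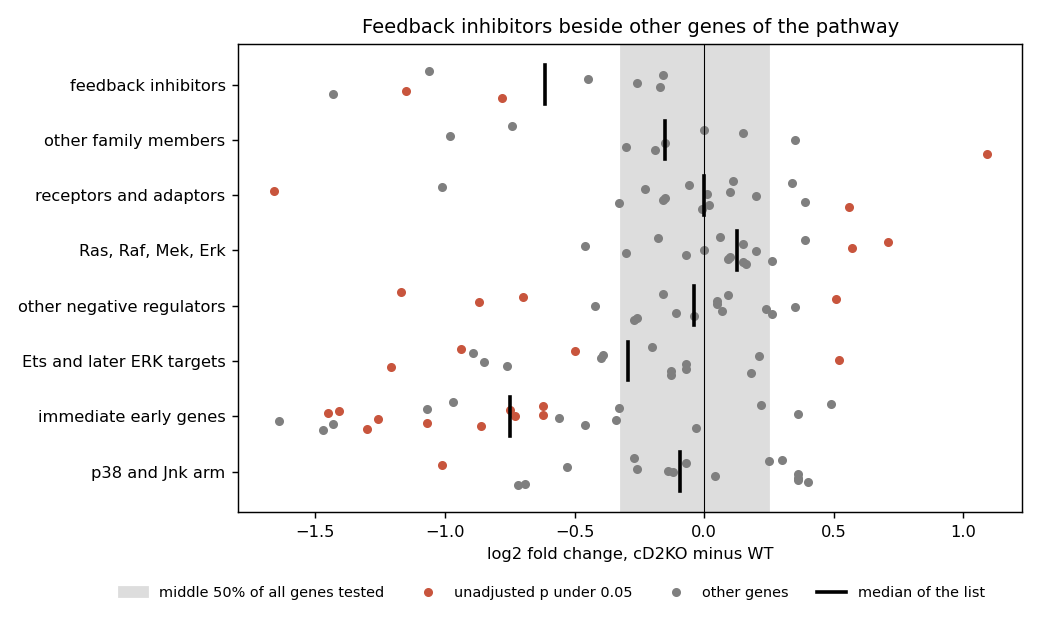
Log2 fold change (cD2KO minus WT) of each tested gene by list; red points have an unadjusted p under 0.05, black bars are list medians, and the grey band is the middle 50% of all genes tested, from -0.32 to 0.25. The medians of the feedback inhibitors (-0.61) and the immediate early genes (-0.75) lie below the band, and those of the other lists lie within it.

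The genes whose level over the 6 mice was closest to that of Spry1, by the root mean square difference of log2 CPM centred on each gene's mean, were Tmem44 (0.056), Osbpl9 (0.072), Cept1 (0.106), Tpd52 (0.107) and Rinl (0.108). Like Spry1, each had its highest level in c129 and its lowest in fl125, which follows from choosing them by closeness to Spry1. Osbpl9, for example, measured 42, 70.5 and 39 CPM in WT against 28.7, 39.9 and 39.5 CPM in cD2KO. Of these 5, only Tpd52 had an unadjusted p under 0.05 (-0.58, adjusted p = 0.377).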

How the data were processed

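RNA was measured in qMuSCs of 3 WT and 3 cD2KO mice, 1 library per mouse. The authors deposited whole-number read counts per gene, not normalized; the submitters' processing notes name bcl2fastq, STAR 2.6.0a, HTSeq 0.9.1 and mm10. The gene annotation, whether strand was used and how PCR duplicates were treated are not given in the sources used here.

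For CPM, the deposited counts were scaled to the total of the genes tested times its TMM factor. Genes whose DESeq2-normalized counts averaged over 10 entered edgeR 4.0.16 (R 4.3.3, TMM factors, robust quasi-likelihood test, two-sided, no covariates). They were called at an unadjusted p under 0.05 after the study's methods, with Benjamini-Hochberg adjusted p-values over all 11633 genes. The words rose, fell, higher and lower refer to the unadjusted threshold. An adjusted p given for another fit was adjusted over the genes of that fit. Intervals are 95% and use the fit's standard error. Alternatives were DESeq2 1.42.0, limma 3.58.1 (voom), other scalings, minimums and thresholds, and leaving out each mouse; leaving out c129 and fl125 together was chosen after seeing the data. The fit was tested on simulated counts.

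The members and gene lists were chosen with earlier results of these data known. Named genes were the members, Dio2, Pax7, up to 4 genes per pathway list with the smallest p under 0.05, a fixed set of pathway genes (some of which are not reported here) and the 5 profiles closest to Spry1. Ergic1 was named because it overlaps Dusp1, and Cd79a because it was at 0. The other FGF receptors were named to stand beside Fgfr1. Single mural and heat shock or metallothionein genes were named to show how their lists split. Apart from their weight in the mural sum, levels of different genes were not compared, since the part of a transcript that was read is not stated. Gene coordinates are from GENCODE M21 (mm10) and promoter sequences from RefSeq (GRCm38.p6).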

Additional observations from a re-analysis of the deposited data

How the results depend on the processing

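The members counted as lower were 2 of 8 with all mice and 0 at an adjusted p under 0.05 or 0.1. They were 1 to 4 with each mouse left out and 0 of 7 without c129 and fl125. Lower were 1 of 7 without c129, 4 of 8 without c130, 3 of 9 without fl125 and 3 of 8 without fl128. Of all genes tested in these 4 fits, 3.46%, 5.4%, 7.43% and 5.81% were lower, against 6.62% with all mice. Over all genes, 621 were higher; this was 939 with no expression minimum, 1 at an adjusted p under 0.05, 33 at 0.1, 402 (without fl128) to 933 (without fl125) with each mouse left out and 974 without c129 and fl125. The 770 lower genes became 505 with a minimum mean of 50, 0 at an adjusted p under 0.05, 57 at 0.1 and 399 to 874 with each mouse left out (399 without c129). The log2 fold change of Spry2 turned to 0.01 without c129 (-0.25 to 0.01 over the fits with each mouse left out), and that of Spry1 to 0.03 without c129 and fl125 (-0.60 to -0.14 with each mouse left out). The cause was not tested. With no expression minimum, the adjusted p was 0.0381 for Dusp1 and 0.0205 for Dusp6. How many of all genes passed in that fit was not counted. Over all alternatives the adjusted p ranged from 0.0381 to 0.693 for Dusp1 and from 0.0205 to 0.628 for Dusp6. No paired analysis was possible because the labels number no replicates and tie no WT mouse to a cD2KO mouse by litter, batch or day. Between 2184073 and 3897787 counts per mouse, and 3 mice per group, limit what can be seen of Dusp2, Dusp4, Dusp5 and Spry4.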
